A study of Mus musculus with 4 samples.

Results

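Actins are the globular proteins that polymerise into the thin filaments of muscle and the cytoskeleton of other cells, and mice make 6 nearly identical ones from 6 genes. Acta1 (skeletal alpha-actin), Actc1 (cardiac alpha-actin), Acta2 (vascular smooth muscle alpha-actin), Actg2 (enteric smooth muscle gamma-actin), Actb (cytoplasmic beta-actin) and Actg1 (cytoplasmic gamma-actin) were followed here in heart RNA. All probe sets annotated to 1 of these symbols alone were taken, which gave 12 of 45101 probe sets: 9 regular ones and 3 Actb control ones. A probe set is a group of short probes on the array that together report 1 transcript. No probe set listed a member beside another symbol. The family was chosen by values seen earlier on these same arrays, among them the high Acta1 value of 1 wild type heart, so the values below are descriptions and no member was given a p-value.

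The data were 4 Affymetrix mouse expression arrays of total heart RNA, labelled as coming from 4 mice, 2 wild type (NTg 1 and NTg 2) and 2 carrying a Sirt1 transgene (Tg-Sirt1 1 and Tg-Sirt1 2). Sirt1 is an NAD-dependent protein deacetylase, and the series asked how it regulates gene expression in the heart. Hearts were taken after a pentobarbital dose of 120 mg/kg, used for all 4 mice. Age, sex, strain, the promoter that drives the transgene and the number of transgenic lines were not stated by the labels, and replicates are called separate mice only by the design text. Values are deposited log2 values from RMA, a method that puts the arrays on a common scale, so a difference of 1 is 2-fold.

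The arrays labelled NTg 1 and Tg-Sirt1 1 read almost alike, and every comparison of labels below rests on this pair. Whether 1 of them repeats the other cannot be told from these values, and if so 1 label would hold a single heart, so each mean, SD and n = 2 by label is given under the labels as deposited. Their differences over 45037 probe sets had an SD of 0.0759, and 0 probe sets (0%) lay 2-fold apart. In the other 5 pairs of arrays the SD was 0.342 to 0.405, with 551 to 1101 probe sets over 2-fold apart. Samples are therefore called by the names of their arrays, and a difference between NTg 2 and NTg 1, or between Tg-Sirt1 2 and Tg-Sirt1 1, is a comparison of single hearts within a label, with no replicate check. The Sirt1 transcript itself was at 7.30 (NTg 1), 7.17 (NTg 2), 7.16 (the library labelled Tg-Sirt1 1) and 7.93 (Tg-Sirt1 2), so that the library labelled Tg-Sirt1 1 did not stand above the wild type arrays. NTg 2 had a narrower spread of values (SD 1.89, against 1.98 to 2.01 on the other arrays), and the 3767 genes with a mean of at least 9 had a median difference of -0.24 between NTg 2 and NTg 1, which a second quantile normalization brought to -0.01. For the actins the value after that step is given too wherever a direction or a 2-fold call changed with it. In the brightest probe set of each, the defining cardiomyocyte genes were high and even: Myh6 read 13.86 to 13.93, Tnnt2 13.56 to 13.82 and Tnni3 13.74 to 13.85.

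Cardiac alpha-actin is the main thin filament actin of the adult ventricle, and skeletal alpha-actin is the other sarcomeric isoform of the heart, abundant around birth and again under pressure load. Smooth muscle alpha-actin marks vessel walls and activated fibroblasts, and the cytoplasmic isoforms are found in all cells. The muscle actin genes are classic targets of serum response factor (SRF), which binds the CArG box, a short A/T-rich element between CC and GG. The upstream sequences of 4 members were matched in RefSeq's table for GRCm38.p6, those of Acta1, Actc1, Actg1 and Acta2, and were searched on both strands for the CArG box. For Acta1, Actc1 and Actg1 the 250 bases before the annotated start are shown, 5′ to 3′ on the gene's own minus strand, since their ranges over the arrays were the widest and the narrowest of the members, with Actg1 between them. The regions are chr8:123894776-123895025 for Acta1, chr2:114052876-114053125 for Actc1 and chr11:120348496-120348745 for Actg1. Capitals mark each CArG box, either exact or with 1 G or C in its A/T core of 6 bases:
Acta1: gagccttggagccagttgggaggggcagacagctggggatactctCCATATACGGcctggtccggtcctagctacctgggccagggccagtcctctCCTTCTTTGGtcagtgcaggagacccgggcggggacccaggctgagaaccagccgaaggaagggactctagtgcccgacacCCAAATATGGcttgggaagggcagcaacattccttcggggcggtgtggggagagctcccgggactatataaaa
Actc1: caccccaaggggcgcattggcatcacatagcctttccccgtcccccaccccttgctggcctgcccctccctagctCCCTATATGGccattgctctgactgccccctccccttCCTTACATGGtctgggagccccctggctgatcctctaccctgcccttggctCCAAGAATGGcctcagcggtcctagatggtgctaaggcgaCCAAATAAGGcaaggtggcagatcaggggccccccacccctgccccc
Actg1: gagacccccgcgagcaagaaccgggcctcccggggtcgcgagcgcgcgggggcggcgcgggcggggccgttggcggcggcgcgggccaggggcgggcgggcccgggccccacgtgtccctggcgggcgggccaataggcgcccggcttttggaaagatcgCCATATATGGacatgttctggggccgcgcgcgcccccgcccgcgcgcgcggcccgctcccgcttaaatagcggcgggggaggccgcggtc

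For Acta2, 30 bases around each of its matches are shown, at chr19:34255438-34255467 and chr19:34255388-34255417, since another transcript model of this gene starts farther upstream:
Acta2, distal: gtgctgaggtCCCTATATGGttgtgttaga
Acta2, proximal: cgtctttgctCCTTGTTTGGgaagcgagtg

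An exact CArG box lay 73 to 64 bases before the start of Acta1, 47 to 38 bases before that of Actc1 and 90 to 81 bases before that of Actg1. Such a match was present in 1.47% of the 32851 upstream windows of 250 bases in the table. The form with 1 G or C in the core was present in 7.24% of windows, and there were 2 of these in Acta1, 3 in Actc1 and 2 in Acta2. The letters CATTCC, the core of the MCAT element bound by TEAD factors, were found at 46 to 41 bases before the start of Acta1 and, on the other strand, in the window of Acta2, and in 12.6% of all windows. The isoform with the widest range across the hearts (Acta1) and the one with the narrowest (Actc1) thus both held an exact match. Actg1 had the highest G and C content of the 4 windows (79.2%) and Acta2 the lowest (53.6%). These matches describe letters and no binding was measured.

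Skeletal alpha-actin was high in a single wild type heart. Acta1 lies on chromosome 8 and is read by 1 probe set, 1427735_a_at. It read 7.37 (NTg 1) and 12.17 (NTg 2) under the wild type label, with 7.23 (array 1) and 6.46 (array 2) under Tg-Sirt1. NTg 2 stood 4.80 log2 units above the wild type array NTg 1, a 27.9-fold difference, while the near-identical pair differed by -0.14. The range over the 4 arrays, 5.71, was the largest of all 18193 genes and of all 45037 probe sets. Tg-Sirt1 2 was the lowest array, at a difference of -0.77 (1.71-fold) from the array labelled Tg-Sirt1 1. Among the 4687 probe sets within 0.5 log2 units of the same mean level, the median difference was -0.18 for NTg 2 minus NTg 1 and 0.02 for Tg-Sirt1 2 minus Tg-Sirt1 1.

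By label, the Acta1 mean was 9.77 ± 3.39 (SD, n = 2) in NTg and 6.85 ± 0.54 (SD, n = 2) in Tg-Sirt1. Both Tg-Sirt1 values lay below both NTg values, but the SD within NTg exceeded the difference of -2.92 between the means. The difference was -0.53 without NTg 2 and -5.33 without NTg 1, and -3.27 or -5.29 with the near-identical pair averaged as NTg or as Tg-Sirt1. The second quantile normalization left NTg 2 at 4.94 above NTg 1.

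**Figure D1:**
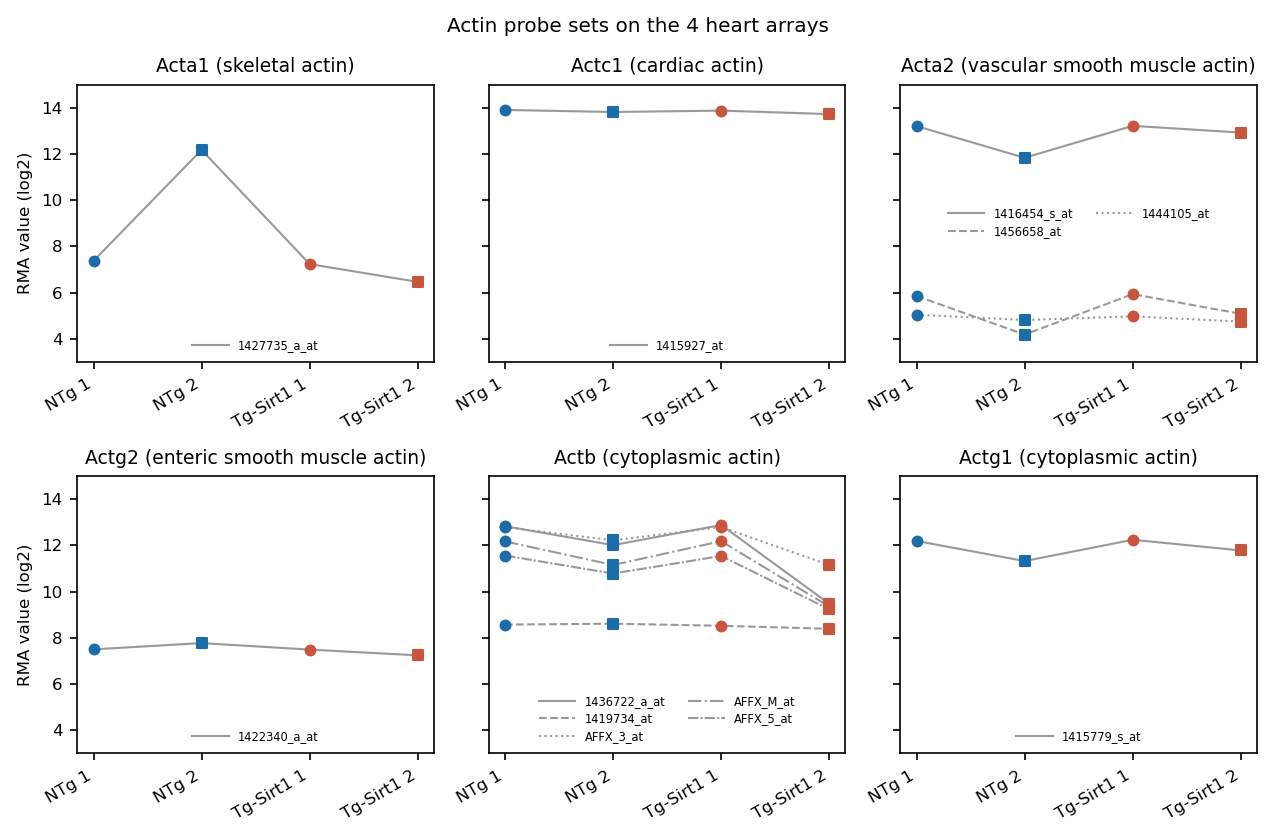
RMA values (log2) of the 12 actin probe sets on the 4 arrays, 1 panel a gene; blue is NTg, red is Tg-Sirt1, circles are arrays 1 and squares arrays 2, and grey lines join the values of 1 probe set. Acta1 stands at 12.17 on NTg 2 against 6.46 to 7.37 elsewhere, Actb is at 9.47 on Tg-Sirt1 2 in its brightest probe set, and Actc1 stays between 13.72 and 13.90.

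Of the skeletal muscle markers, Casq1 and Mybpc2 were high on NTg 2, the array of high skeletal actin. Of the 17 markers, 13 read higher on NTg 2 than on NTg 1, with a median difference of 0.17 (0.11 after the second quantile normalization), and 2 of them by at least 2-fold, where 0.313% of genes lay that far above NTg 1. These were Casq1, the calsequestrin of skeletal sarcoplasmic reticulum, at 10.02 on NTg 2 against 7.93 on NTg 1, and Mybpc2, the fast myosin-binding protein C, at 9.10 against 7.22. The fast myosin genes were dim on all arrays, with Myh1 at 5.79 to 6.04, Myh2 at 6.08 to 6.19 and Myh4 at 4.17 to 4.25, and so was the fast troponin T gene Tnnt3 at 4.23 to 4.45 (these 4 were picked after their values were seen). Other dim markers differed more on NTg 2, with Myf6 at 0.52, Tnnc2 at 0.48 and Myod1 at 0.41 above NTg 1. In all, 4 of the 17 were lower on NTg 2, the farthest being Cacna1s (-0.42). The mean log2 value of the list was 6.34 for NTg 2 and 5.97 to 5.98 for the rest. Dim probe sets as a whole also read slightly higher on NTg 2. The 9475 within 0.5 log2 units of the dim Acta2 probe set 1456658_at had a median of 0.12 for NTg 2 minus NTg 1. No share was computed at the level of the list, so nothing was read from the count of 13. The part of skeletal muscle RNA in the Acta1 value was not tested.

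Other genes of load and fetal heart differed on NTg 2 in both directions. Myh7, the slow myosin heavy chain, read 13.27 on NTg 2, against 11.65 on NTg 1 and 10.89 on Tg-Sirt1 2. It shared with Acta1 the order of the arrays, highest on NTg 2 and lowest on Tg-Sirt1 2, with a smaller range of 2.38. Tnnt1, the slow skeletal troponin T, went the other way, at 7.43 on NTg 2 and 10.92 to 11.16 elsewhere. Rcan1, a calcineurin inhibitor, read 9.33 on NTg 2 and 10.39 to 10.44 elsewhere, and its dimmer probe set read 7.07 on NTg 2 but 6.94 on Tg-Sirt1 2. By less than 2-fold, the natriuretic peptide genes Nppb (0.70) and Nppa (0.49) and Myl4 (0.47) were higher on NTg 2 than on NTg 1. Cited4 (-0.77) and Tnni1 (-0.50) were lower there. Nppa and Myl4 were also higher on Tg-Sirt1 2 than on the array labelled Tg-Sirt1 1 (0.54 and 0.51), whereas Nppb was not (-0.21). The 14 measured genes of this list were split evenly, 7 higher and 7 lower on NTg 2 than on NTg 1, with a median of 0.01. After the second quantile normalization 5 were lower, with a median of 0.17.

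Cardiac alpha-actin had a narrow range over the hearts. Actc1, on chromosome 2, read 13.90 and 13.81 in wild type hearts 1 and 2, and 13.87 and 13.72 in those labelled Tg-Sirt1 1 and 2. Its range of 0.18 was smaller than that of 35439 of the 45037 probe sets, which are of all levels. The 10 cardiomyocyte markers, also bright, had ranges of 0.07 to 0.27, so the narrow range was not particular to Actc1. The means were 13.86 ± 0.06 (SD, n = 2) in NTg and 13.79 ± 0.11 (SD, n = 2) in Tg-Sirt1. Only 12 probe sets had a higher mean, and the 55 probe sets within 0.5 log2 units had medians of -0.10 both for NTg 2 minus NTg 1 and for Tg-Sirt1 2 minus Tg-Sirt1 1, close to the -0.09 and -0.15 of Actc1. The highest value of any probe set on any array was 14.20, and whether signal this near the top is compressed was not tested. NTg 2 minus NTg 1 turned to 0.02 after the second quantile normalization.

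Smooth muscle alpha-actin was low in the heart where skeletal alpha-actin was high. The bright Acta2 probe set, 1416454_s_at, read 13.20 (NTg 1) and 11.83 (NTg 2) under the wild type label, with 13.21 (array 1) and 12.92 (array 2) under Tg-Sirt1. NTg 2 was thus 2.58-fold below NTg 1 and below both Tg-Sirt1 arrays. The difference of -1.37 was the lowest among the 305 probe sets of like level, whose median was -0.18, and it was -1.18 after the second quantile normalization. The suffix _s_at marks probes that match transcripts of more than 1 gene, so other actins may add to this value. A dim Acta2 probe set, 1456658_at, went the same way, with 5.85 and 4.18 in wild type hearts 1 and 2, and 5.93 and 5.08 in those labelled Tg-Sirt1 1 and 2. The third, 1444105_at, read 4.74 to 5.04, in a range where few probe sets carry signal. By label the bright probe set had means of 12.52 ± 0.97 (SD, n = 2) in NTg and 13.07 ± 0.21 (SD, n = 2) in Tg-Sirt1, and the labels overlapped. Without NTg 2, the difference of 0.55 between the labels turned to -0.14.

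Other smooth muscle genes were mostly lower on NTg 2 in the deposited values only, by less than Acta2. Of the 14 smooth muscle and pericyte markers, 10 were lower on NTg 2 than on NTg 1 (median -0.11) and 5 were lower after the second quantile normalization (median 0.05). Smtn, the gene of the contractile protein smoothelin, read 9.18 on NTg 2 against 9.83 on NTg 1. The contractile markers Myh11 (smooth muscle myosin, 8.83 and 8.74 on NTg 1 and NTg 2), Cnn1 (calponin, 7.05 and 7.10) and Tagln (10.16 and 10.11) were close on the wild type arrays. On Tg-Sirt1 2 they were lower than on the array labelled Tg-Sirt1 1, at 8.29 against 8.83, 6.47 against 7.04 and 9.13 against 10.13. Myl9, the smooth muscle regulatory light chain, was low on both arrays 2, at 9.45 on NTg 2 and 9.81 on Tg-Sirt1 2 against 10.53 and 10.52. Abcc9, a potassium channel regulator of pericytes and myocytes, read 11.70 on NTg 2 and 12.60 to 12.74 elsewhere. The mean log2 value of the list was 9.77 (NTg 1) and 9.53 (NTg 2) under the wild type label, with 9.77 (array 1) and 9.48 (array 2) under Tg-Sirt1.

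Fibroblast genes were low on NTg 2 together with Acta2. Of 12 fibroblast and myofibroblast markers, 11 read lower on NTg 2 than on NTg 1, with a median of -0.85 (-0.61 after the second quantile normalization, again with 11 lower). Among them were the collagen genes Col1a1 (-1.33), Col3a1 (-1.27) and Col1a2 (-1.01) and the fibroblast transcription factor gene Tcf21 (-1.07), and these 4 were the only ones past 2-fold, where 1.13% of genes lay that far below NTg 1. After the second quantile normalization 2 lay past 2-fold, Col1a1 (-1.10) and Col3a1 (-1.05). Dimmer probe sets, as deposited, differed less for Col1a1 (-0.43), Col1a2 (-0.82 and -0.15) and Tcf21 (0.03), but more for Col3a1 (-1.72). The mean log2 value of the list was 10.06 and 9.31 in wild type hearts 1 and 2, and 10.07 and 9.79 in those labelled Tg-Sirt1 1 and 2. On Tg-Sirt1 2, too, 10 of the 12 read lower than on the array labelled Tg-Sirt1 1 and 2 higher. The median there was -0.17, with Col1a1 at -0.92 and Col1a2 at -0.80 in their brightest probe sets. Dimmer probe sets did not show drops of that size, at -0.23 for Col1a1 and at 0.00 and 0.17 for Col1a2. The part of fibroblast RNA in the Acta2 and cytoplasmic actin values was not tested. In whole-heart RNA, fewer cells of a type and less RNA per cell cannot be told apart.

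Enteric gamma-actin differed by less than 2-fold between any of the arrays. Actg2 (1422340_a_at, chromosome 6) read 7.50 (NTg 1) and 7.77 (NTg 2) under the wild type label, with 7.49 (array 1) and 7.24 (array 2) under Tg-Sirt1. The order of the arrays was the one seen for Acta1, at a range of 0.53 that 9982 probe sets exceeded. Both Tg-Sirt1 values lay below both NTg values, with means of 7.63 ± 0.19 (SD, n = 2) in NTg and 7.37 ± 0.18 (SD, n = 2) in Tg-Sirt1, but NTg 1 and the array labelled Tg-Sirt1 1 differed by only -0.01.

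Beta-actin read low on 1 transgenic heart in its bright probe sets. The probe set 1436722_a_at of Actb (chromosome 5) read 12.83 and 12.01 in wild type hearts 1 and 2, and 12.88 and 9.47 in those labelled Tg-Sirt1 1 and 2. Tg-Sirt1 2 was 10.6-fold below the other array of its label, the lowest difference of the 558 probe sets of like level. Its range of 3.41 ranked 8 among the 18193 genes. The other regular Actb probe set, 1419734_at, read 8.57 (NTg 1) and 8.61 (NTg 2) under the wild type label, with 8.52 (array 1) and 8.39 (array 2) under Tg-Sirt1. The 2 probe sets of this gene thus disagreed, with -3.41 and -0.13 for Tg-Sirt1 2 minus Tg-Sirt1 1.

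The 3 control probe sets, which read the 3′ end, the middle and the 5′ end of the Actb transcript, followed the bright probe set. The 3′ set read 12.78 and 12.22 in wild type hearts 1 and 2, and 12.79 and 11.15 in those labelled Tg-Sirt1 1 and 2. The middle set read 12.17, 11.15, 12.18 and 9.35 in the same order of arrays, and the 5′ set 11.56, 10.78, 11.54 and 9.23. Tg-Sirt1 2 was lowest in all 3, by 3.12-fold at the 3′ end, 7.11-fold in the middle and 4.96-fold at the 5′ end against the array labelled Tg-Sirt1 1. NTg 2 was next lowest in all 3, and in the middle set its difference from NTg 1 went from -1.02, past 2-fold, to -0.78 after the second quantile normalization. These 3 sets were among the 64 controls left out of the fit.

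**Figure D2:**
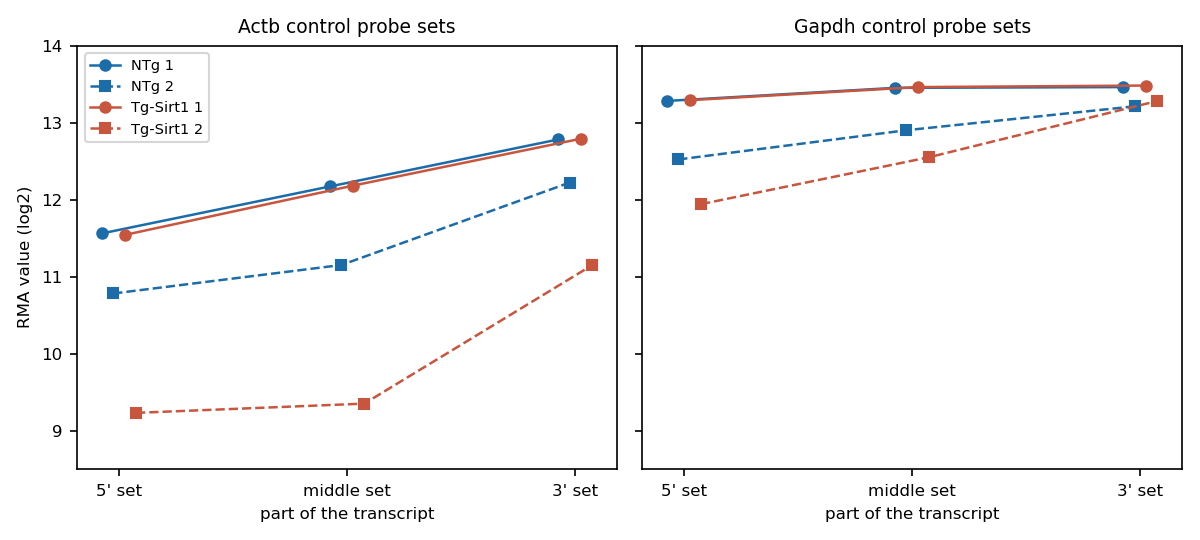
RMA values (log2) of the 5′, middle and 3′ control probe sets of Actb (left) and Gapdh (right) on the 4 arrays; solid lines with circles are arrays 1, dashed lines with squares arrays 2, blue NTg and red Tg-Sirt1. For Actb the line of Tg-Sirt1 2 lies below the others throughout and rises from 9.35 to 11.15 between the middle and the 3′ set, while for Gapdh the 4 arrays meet at the 3′ set.

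The low Actb value of Tg-Sirt1 2 was farther from the other arrays in the middle and 5′ sets than in the 3′ set. The Actb 3′ minus middle difference was 0.61 (NTg 1) and 1.07 (NTg 2) under the wild type label, with 0.61 (array 1) and 1.80 (array 2) under Tg-Sirt1, whereas the middle and 5′ sets of Tg-Sirt1 2 were only 0.12 apart. For Gapdh, a glycolytic enzyme gene with the same kind of controls, the 3′ set read 13.21 to 13.48 on all arrays, and the 5′ set read 13.28, 12.52, 13.29 and 11.94. The 3′ minus 5′ differences of Gapdh were 0.18, 0.69, 0.19 and 1.34, in the same order of arrays as those of Actb (1.22, 1.44, 1.25 and 1.92). At the 3′ set itself, Tg-Sirt1 2 minus Tg-Sirt1 1 was -1.64 for Actb and -0.20 for Gapdh. For the other control transcripts, the 3′ minus 5′ difference on Tg-Sirt1 2 lay within the range of the other arrays: it was 1.19 for Pcx, against 0.87 to 1.47, and 2.64 for Tfrc, against 2.04 to 2.64. The 18 spiked bacterial and phage controls were lowest on Tg-Sirt1 2 in 18 of 18 cases, by -1.64 to -1.03 against the array labelled Tg-Sirt1 1, and highest on NTg 2 in 18 of 18, by 0.30 to 1.08 against NTg 1. The part of RNA quality, labelling or hybridization in the Actb values was not tested.

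Gamma-actin of the cytoplasm was low on the same arrays as beta-actin. Its difference was near that of the bright Actb probe set on NTg 2 (-0.87 and -0.82) and smaller on Tg-Sirt1 2 (-0.46 and -3.41). Actg1 (1415779_s_at, chromosome 11) read 12.19 and 11.32 in wild type hearts 1 and 2, and 12.24 and 11.78 in those labelled Tg-Sirt1 1 and 2. NTg 2 was 1.83-fold below NTg 1, and Tg-Sirt1 2 was 1.38-fold below the other array of its label. Whereas Actb was lowest on Tg-Sirt1 2, Actg1 was lowest on NTg 2, as Acta2 was. Its difference of -0.87 on NTg 2 compares with a median of -0.22 over the 536 probe sets of like level, and it was -0.66 after the second quantile normalization. By label the means were 11.75 ± 0.62 (SD, n = 2) in NTg and 12.01 ± 0.33 (SD, n = 2) in Tg-Sirt1, and the labels overlapped. This probe set is also an _s_at set, so its probes may read transcripts of other genes.

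**Figure D3:**
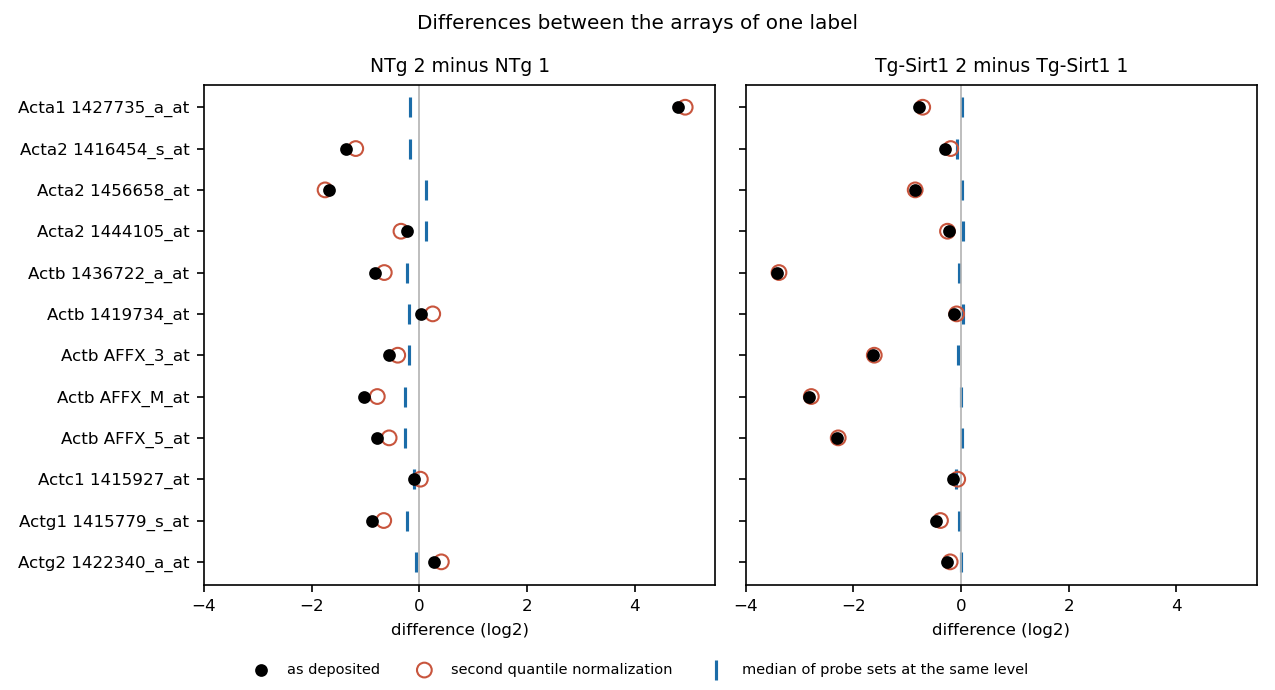
Differences (log2) between the arrays of 1 label for the 12 actin probe sets, NTg on the left and Tg-Sirt1 on the right; black points are the deposited values, red rings the values after a second quantile normalization, and blue ticks the median of all probe sets within 0.5 log2 units of the same mean. Acta1 is at 4.80 in NTg and the bright Actb probe set is at -3.41 in Tg-Sirt1. On the right 9 of 9 regular probe sets lie below 0, a count with no share of all probe sets computed beside it.

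Within the wild type label, 1 of the 9 regular probe sets was at least 2-fold higher on NTg 2 (Acta1), where 0.229% of all probe sets were, and 2 were at least 2-fold lower (both of Acta2), where 1.1% were. Within the Tg-Sirt1 label, 0 of 9 were at least 2-fold higher on Tg-Sirt1 2, against 0.187% of all probe sets, and 1 was at least 2-fold lower (Actb), against 1.89%. All 9 read lower on Tg-Sirt1 2 than on the array labelled Tg-Sirt1 1, also after the second quantile normalization. The median of this difference over all probe sets was 0.02. No share of all probe sets below 0 was computed, and the 9 include 3 of Acta2 and 2 of Actb, so nothing was read from this count. The probe sets of smallest difference were 1419734_at of Actb (-0.13) and that of Actc1 (-0.15). The array labelled Tg-Sirt1 1 differed from NTg 1 by at most 0.14 in any of the 9. As the family was chosen with these values known, the shares describe the background and nothing was read from them.

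**Figure D4:**
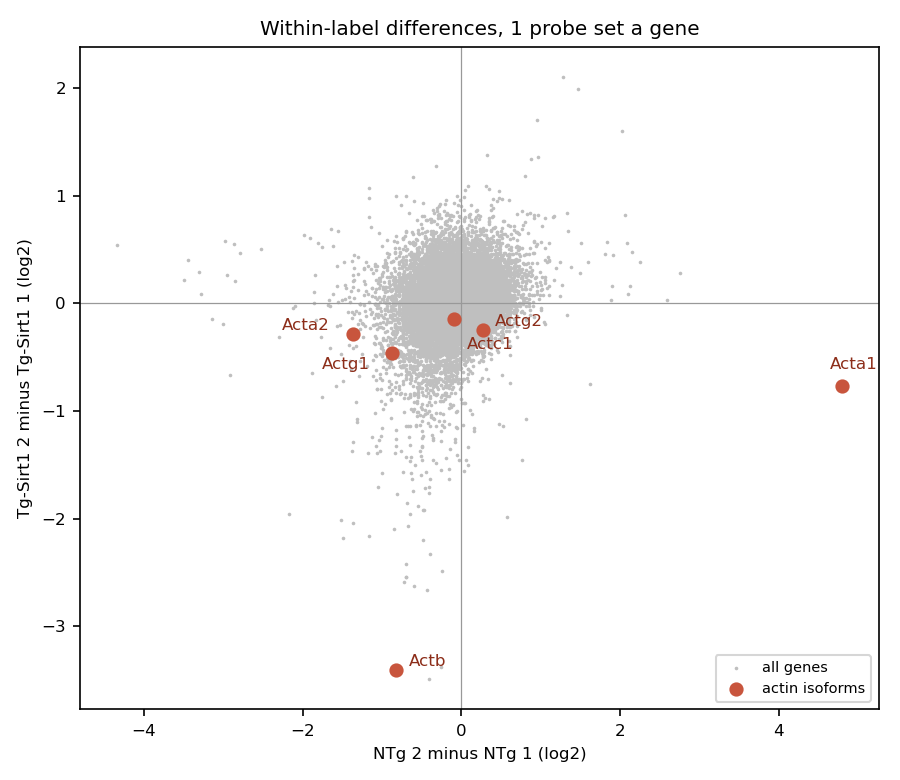
Difference of NTg 2 minus NTg 1 (log2, horizontal) against Tg-Sirt1 2 minus Tg-Sirt1 1 (log2, vertical) for 18193 genes in grey, each by its brightest probe set, with the 6 actin genes in red. Acta1 lies alone at 4.80 on the right, Actb at -3.41 near the bottom, and Actc1 and Actg2 within the cloud.

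Between the labels, no probe set passed the test on the whole table. In limma, 0 of 45037 probe sets (0%) had an adjusted p under 0.05 (lowest 0.996), 28 had an unadjusted p under 0.05 (0 to 4087 with 1 array left out, and 2480 or 4314 with the near-identical pair averaged), and with an intensity trend and a robust prior 0 passed as well. With 2 arrays a label, 1 of each near-identical to the other, a lack of calls is no evidence of equal expression. Of the 9 regular actin probe sets, 6 had a lower and 3 a higher Tg-Sirt1 mean. Both Tg-Sirt1 values lay below both NTg values at 3 of the 9, those of Acta1 and Actg2 and the dim one of Actb, against 11.4% of all probe sets, and above them at 0, against 9.59%. In 2 of these 3 the array labelled Tg-Sirt1 1 was within 0.05 of NTg 1. The Actb means were 12.42 ± 0.58 (SD, n = 2) in NTg and 11.18 ± 2.41 (SD, n = 2) in Tg-Sirt1 for the bright probe set. Its difference of -1.24 was 0.46 without Tg-Sirt1 2.

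The genes with the profile nearest to that of Acta1 were listed as a description. Likeness was measured as the Euclidean distance between log2 values centred on each gene's mean, over the 4 arrays, so that the size of a swing counts as well as its shape. The 8 nearest among the 18193 genes were Pdk4, Cyp2b10, Angptl4, Mybpc2, Myh7, Acot1, Meig1 and Gm19277, at distances of 2.35 to 2.94. All 8 were highest on NTg 2, by 1.62 to 2.75 over NTg 1, against the 4.80 of Acta1. This follows from the measure, which picks genes with a large rise on NTg 2. After Acta1, the largest rise of any gene was the 2.75 of Pdk4, so every neighbour had to rise by less. Nothing was read from either. Pdk4, a kinase that inhibits pyruvate dehydrogenase, read 13.01 on NTg 2 and 10.26 to 10.55 elsewhere. Angptl4, a secreted inhibitor of lipoprotein lipase, read 9.22 on NTg 2 and 6.97 to 7.36 elsewhere. Acot1, a cytosolic acyl-CoA thioesterase, read 8.48 on NTg 2 and 6.38 to 6.57 elsewhere. Cyp2b10, a drug-inducible cytochrome P450, read 8.40 on NTg 2 and 5.81 to 5.96 elsewhere. Myh7 alone of the 8 was lower on Tg-Sirt1 2 than on the array labelled Tg-Sirt1 1, as Acta1 was. All 8 were among the 600 genes with a range of at least 1, so ranking by distance within those 600 could not change them. By Pearson correlation among those 600, 2 of the 8 remained among the nearest 8 (Mybpc2 and Cyp2b10). As 2 of the 4 arrays were near-identical, such a likeness rests on 3 distinct profiles.

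Of 154 genes that act on actin or share its regulators, 8 (5.19%) had a range of at least 1, as had 3.3% of all genes. On 8 lists of genes that fold, bind, nucleate, anchor or regulate actin, or belong to load and fetal genes, 154 of 168 distinct genes were measured, and in limma 0 of them passed in either direction, with 0 at an unadjusted p under 0.05. Their median Tg-Sirt1 minus NTg difference was 0.07, with 96 higher and 55 lower, beside a median of 0.02 over all genes with 53.1% higher. Without NTg 2 the median of the 154 was -0.03, with 62 higher and 92 lower, and without NTg 1 it was 0.21. On NTg 2, 5 of the 154 were at least 2-fold below NTg 1 and 2 at least 2-fold above (1.13% and 0.313% of all genes), with 4 and 2 after the second quantile normalization. On Tg-Sirt1 2, 1 was at least 2-fold above and 1 at least 2-fold below the other array of its label (0.104% and 0.742% of all genes). The median of NTg 2 minus NTg 1 over the 154 was -0.22, and -0.06 after the second quantile normalization. As deposited it was -0.24 over the genes with a mean of at least 9 and -0.01 over all genes, and the 154 lie on both sides of that level.

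SRF cofactors and other regulators of the muscle actin genes read mostly lower on NTg 2 in the deposited values. Of 22 measured genes of this list, 15 were lower on NTg 2 than on NTg 1 (median -0.32, and -0.07 with 12 lower after the second quantile normalization). The median was -0.24 over the genes with a mean of at least 9 and -0.01 over all genes. The list holds genes on both sides of that level, such as Tead4 at 5.55 to 5.84. Only Csrp2, a LIM protein of smooth muscle that bridges SRF and GATA factors, lay past 2-fold between the arrays of a label, at 8.58 on NTg 2 and 10.06 to 10.37 elsewhere. On NTg 2 the other 21 differed from NTg 1 by -0.64 to 0.30. By label, 17 of the 22 had a higher Tg-Sirt1 mean, with a median of 0.08 that was -0.02 without NTg 2 and 0.23 without NTg 1.

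In their brightest probe sets, genes of filament assembly lay within 2-fold of NTg 1 on NTg 2 with 2 exceptions, Cobl and Coro1a. Among 25 nucleation genes, Cobl, an actin nucleator, read 6.97 on NTg 2 and 8.33 to 8.41 elsewhere, though its dim probe set read 5.42 to 5.51 on all arrays. The other 24, with Arp2/3 complex subunits, formins and leiomodins, lay between -0.70 and 0.60 on NTg 2. Among 23 genes of monomer binding and turnover, Coro1a, the leukocyte coronin, was low on both arrays 2, at 6.20 on NTg 2 and 6.17 on Tg-Sirt1 2 against 7.29 and 7.19. Its dimmer probe sets differed less, by -0.39 and 0.16 on NTg 2 and by -0.33 and 0.06 on Tg-Sirt1 2. Among 15 folding and modification genes, the chaperonin subunit genes Cct3 and Cct6a read highest on Tg-Sirt1 2, at 12.27 and 11.53, against 11.46 to 11.85 and 10.88 to 11.24 elsewhere. Another bright Cct3 probe set differed less, by 0.08 on Tg-Sirt1 2, and dimmer ones of Cct3 by -1.06 to 0.04. The prefoldin gene Pfdn1 read 8.36 on Tg-Sirt1 2 and 9.06 to 9.13 elsewhere.

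Of 24 thin filament and Z-disc genes, Tmod4, the pointed-end cap of skeletal muscle, read 8.22 on NTg 2 and 7.09 to 7.33 elsewhere, so that it was high in the heart with high Acta1. Neb, the giant nebulin of skeletal thin filaments, was instead lowest on NTg 2, at 4.70 against 5.13 to 6.30, in a dim range. The other 22 lay between -0.84 and 0.20 on NTg 2 and between -0.86 and 0.17 on Tg-Sirt1 2. On the list of 21 crosslinkers and anchors the widest ranges were those of Fscn1, the bundling protein fascin (0.90), Msn, the membrane linker moesin (0.75), and Flna, filamin A (0.74). Flna was lowest on Tg-Sirt1 2, at 8.32 against 8.54 to 9.06. Another Msn probe set was low on both arrays 2, at 7.77 and 7.84 against 9.27 and 9.23, unlike the bright one at 10.77 on NTg 2 and 11.52 on Tg-Sirt1 2.

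On the list of actin-related genes, which share the actin fold but form no muscle filament, the 13 measured had ranges of 0.08 to 0.64. The widest were Actl6a, a chromatin remodelling subunit, at 9.02 on Tg-Sirt1 2 and 8.38 to 8.41 elsewhere, Actr3, the Arp3 subunit, at 10.27 to 10.78, and Actr6, at 8.12 to 8.59. The 3 probe sets of Actl6a disagreed on Tg-Sirt1 2, with 0.61, 0.35 and -0.86 against the array labelled Tg-Sirt1 1. Of the 6 actin isoform genes, which were chosen with their ranges known, 3 had a range over 1.

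**Figure D5:**
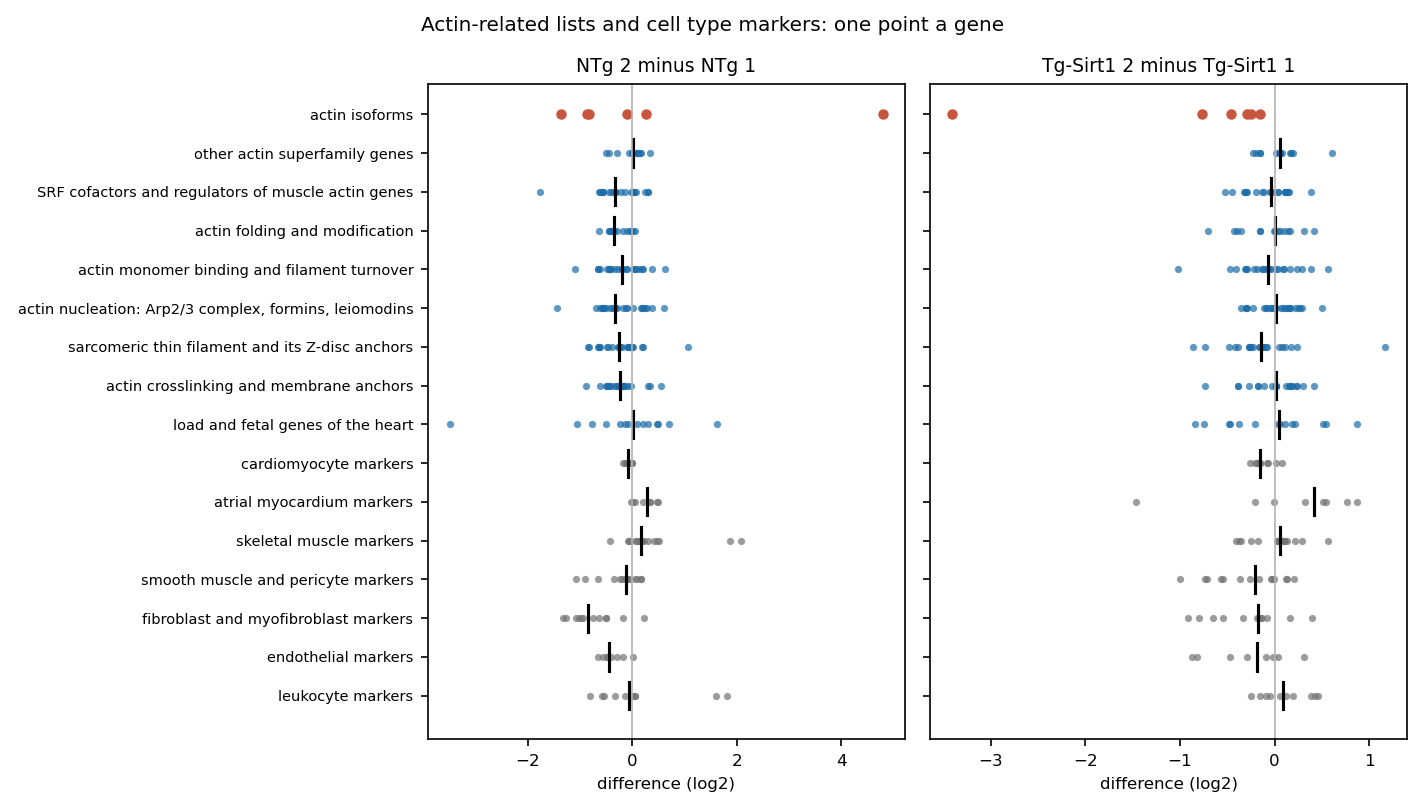
Differences (log2) between the arrays of 1 label, NTg on the left and Tg-Sirt1 on the right, 1 point a gene and 1 row a list; red are the 6 actin genes, blue the actin-related lists, grey the cell type markers, and black bars the median of a list. Most blue points lie within 1 unit of 0, while Acta1 is at 4.80 on the left and Actb at -3.41 on the right, and the fibroblast markers have a median of -0.85 on the left.

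Markers of other cells also differed between these arrays. In their brightest probe sets, all 10 cardiomyocyte markers were lower on NTg 2 than on NTg 1, but by little (median -0.08). After the second quantile normalization 3 were lower (median 0.02). Ryr2, the calcium release channel, had the widest range at 0.27. A dimmer Ryr2 probe set read 8.19 on NTg 2 and 8.25 on Tg-Sirt1 2 against 9.20 and 9.10. A dim Tnnt2 one read 5.79 on Tg-Sirt1 2 and 7.38 to 7.70 elsewhere, while the other Tnnt2 one kept to 13.56 to 13.76. Of 8 endothelial markers 7 were lower on NTg 2 than on NTg 1 (median -0.45), and 6 after the second quantile normalization (median -0.20). Of the 3 widest in range, Kdr and Pecam1 were lowest on Tg-Sirt1 2, at 10.36 and 7.79, whereas Tek was highest there, at 10.09 against 9.34 to 9.82. Atrial markers had a median of 0.27 on NTg 2 (0.50 after the second quantile normalization) and of 0.41 on Tg-Sirt1 2, although Nr2f2, an atrial transcription factor, read 5.91 on Tg-Sirt1 2 in its brightest probe set and 7.34 to 7.37 elsewhere. Its next probe set was instead highest on Tg-Sirt1 2, at 6.66 against 6.28 to 6.39. Of 10 leukocyte markers, the neutrophil genes S100a8 and S100a9 were high on NTg 2, at 7.55 and 8.15 against 5.64 to 6.10 and 6.39 to 6.77. The list median on NTg 2 was -0.06, and 5 of the 10 were lower there. Among these were the macrophage genes Cd68 (-0.81), Lyz2 (-0.58) and Csf1r (-0.33) and the pan-leukocyte gene Ptprc (-0.54). The 4 higher ones were S100a8, S100a9 and, by little, the macrophage gene Adgre1 (0.05) and Cd3e (0.06). Mean log2 values on NTg 1, NTg 2, Tg-Sirt1 1 and Tg-Sirt1 2 were 9.39, 9.01, 9.38 and 9.10 for the endothelial list and 7.65, 7.76, 7.61 and 7.71 for the leukocyte list. The part of these cells in the actin values was not tested.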

How the data were processed

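The deposited log2 values were made by the authors with RMA, per the submitters' processing notes, 1 per probe set and array, and the number of arrays limits the precision. The notes also name Affymetrix Expression Console, without versions. RMA corrects background, quantile normalizes and summarises probes. Scan dates and detection calls were not used here. Symbols came from the platform annotation (34945 of 45037 tested probe sets with 1 symbol, 932 with several, 9160 with none), and the fit omitted 64 controls. The probe set of highest mean stood for each of 18193 genes. Labels were compared with limma 3.58.1 under R 4.3.3 (lmFit, eBayes, two-sided, Benjamini-Hochberg over all probe sets, threshold 0.05, prior degrees of freedom 3.10 beside 2 residual), and the fit was tested on simulated data.

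The members and lists were chosen with earlier results of these data known. Named were all member probe sets, on each list the genes with a range of at least 1 (up to 6, otherwise the 3 widest), 8 genes nearest to Acta1, Myh6, Tnnt2, Tnni3 and Sirt1; other named markers were chosen after their values were seen. A difference is the first array or label minus the second. Differences within a label under other scalings, and those of probe sets within 0.5 log2 units of the same mean, were added after seeing the data. Other settings were a block for the replicate number, omission of each array, the near-identical pair averaged, 3 other scalings, a filter on dim probe sets, another prior and threshold, and the probe sets of a gene. Promoter windows came from RefSeq on GRCm38.p6, whose table gave 4 of the 6 members.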

Additional observations from a re-analysis of the deposited data

How the results depend on the processing

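No probe set passed limma's test of Tg-Sirt1 against NTg under any setting tried: the count was 0 with the replicate block, in which the lowest adjusted p was 0.931 and 31 unadjusted p were under 0.05, and 0 with each array left out, under 3 other scalings, without dim probe sets and with the near-identical pair averaged into either label. With each array left out, the label difference ranged from -5.33 to -0.53 for Acta1, -0.14 to 1.24 for Acta2, -2.95 to 0.46 for Actb, -0.14 to 0.01 for Actc1, -0.18 to 0.69 for Actg1 and -0.41 to -0.14 for Actg2, so the sign turned for Acta2, Actb, Actc1 and Actg1. Ranked by Pearson correlation in place of distance, among the same 600 genes, 2 of the 8 genes nearest to Acta1 remained. With the near-identical pair averaged as NTg or as Tg-Sirt1, the label difference was -2.96 or -0.85 for Actb, 0.40 or 1.23 for Acta2 and 0.01 or 0.68 for Actg1. Of 72 differences between single arrays under another scaling, 20 moved by more than the SD of the near-identical pair, as did 21 of 180 list medians by more than the SD within labels; without NTg 2 the medians of the folding, turnover, nucleation and fibroblast lists turned to -0.01, -0.03, -0.02 and -0.08. With an array left out, the lone array of its label was assumed to vary like the other label. The replicate numbers are not stated to pair mice (correlation of deviations 0.29). The differences between single arrays have no replicate check.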
